A study of Mus musculus with 12 samples.

Results

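Genomic imprinting silences a gene on the copy inherited from either the mother or the father, and 10 imprinted genes were followed here through prophase I of male meiosis: H19, Igf2, Igf2r, Airn, Kcnq1ot1, Peg3, Snrpn, Meg3, Rian and Mest. They were chosen by name as the classical members of imprinted domains, out of 55450 genes in the GENCODE M21 annotation of the mouse genome (build mm10). The measurement was length extension chromatin run-on sequencing (leChRO-seq). In it, engaged RNA polymerases extend their nascent RNA on isolated chromatin in the presence of biotin-labelled CTP and UTP. Spermatocytes of adult wild-type mice were separated by size and density (STAPUT) into 3 substages with 4 libraries each: a joint fraction of leptonema and zygonema (LZ), then pachynema (P), then diplonema (D). No group carried an allele, transgene or treatment, each fraction was enriched but not pure, and the methods name more than 1 mouse background without saying which went into these libraries. The values are dREG peaks, which are sites where the pattern of nascent RNA on both strands resembled transcription initiation, each with a dREG score. Peaks were called on the merged libraries of a substage, so each substage had 1 list, with no spread between replicates and no test. The lists held 71107 peaks in LZ, 68352 in P and 38603 in D.

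A gene was given a promoter peak where the edge of a peak lay under 1000 bp from any of its annotated transcription start sites (TSSs), and a gene-body peak where a peak lay elsewhere within the gene. Of the 10 genes, 8 had a promoter peak in LZ, 9 in P and 4 in D. The D list is much the shortest, and when the LZ and P lists were shortened to their 38603 highest-scoring peaks the counts were 5, 6 and 4, with Igf2r, Airn, Kcnq1ot1, Peg3 and Snrpn still called in LZ and P. In bulk fractions, fewer cells using a promoter and less initiation per cell cannot be told apart. The scores are not scaled between lists, so each highest promoter score is also given as a rank, the share of all genes with a promoter peak in that list that scored lower. Over all annotated genes, 34.0% had a promoter peak in LZ, 34.4% in P and 28.1% in D. Among protein-coding genes these shares were 60.1% in LZ, 60.5% in P and 51.6% in D, and among long noncoding genes (lincRNA, antisense and processed transcripts) they were 36.1%, 36.8% and 28.3%. In the shortened lists the shares were 28.9% of all genes and 52.7% of protein-coding genes in LZ, and 29.3% and 53.1% in P. The members were picked by name as well-studied genes, and with so few of them the counts are given without reading an excess or a deficit from them.

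In the male germ line, imprints inherited from the parents are erased in primordial germ cells and male imprints are laid down before meiosis begins. Few imprints are set by DNA methylation in the father. The H19/Igf2 domain and the Dlk1/Meg3 domain, which also holds Rian, are the textbook examples. At most imprinted domains the methylated copy is maternal, and there the promoter of a paternally expressed RNA is itself the methylated region of the egg and is unmethylated in sperm: Airn, Kcnq1ot1, Peg3, Snrpn and Mest are of this kind. Igf2r, silenced on the paternal copy in most tissues by transcription of Airn across it, starts outside that region. The peak lists hold no information on the parental copy, so everything below concerns both copies together.

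The promoter sequences of the genes the results turn on are shown in the direction of transcription. Each runs from 250 bases before to 50 bases after the RefSeq start nearest to the GENCODE start used for the peaks. The RefSeq start was 88 bp from the GENCODE start for Snrpn, 42 bp for Igf2r and 685 bp for Igf2. For the other genes with a window it was at most 5 bp. The windows of Snrpn and Igf2 therefore do not hold the start called from the peaks. They are RefSeq promoter windows of build GRCm38.p6, which were available for 9 of the 10 genes. H19 has a RefSeq start but had no window here. Capitals mark the letters TGCCGC, the core that the imprint-protecting zinc finger protein ZFP57 recognises, and CCAAT, the NF-Y box, on either strand. The letters AAGATGG, also searched, are the core of the YY1 site, and no motif contains another. Airn and Igf2r are shown because they lie in the same gene and parted in D. Kcnq1ot1, Snrpn and Mest are shown as promoters of the maternally methylated kind, and Meg3 as a promoter from a paternally methylated domain. Their positions are chr17:12741061-12741360 on the plus strand for Airn, chr17:12769657-12769956 on the minus strand for Igf2r, chr7:143296498-143296797 on the minus strand for Kcnq1ot1, chr7:60005150-60005449 on the minus strand for Snrpn, chr6:30737800-30738099 on the plus strand for Mest and chr12:109540746-109541045 on the plus strand for Meg3.
Airn: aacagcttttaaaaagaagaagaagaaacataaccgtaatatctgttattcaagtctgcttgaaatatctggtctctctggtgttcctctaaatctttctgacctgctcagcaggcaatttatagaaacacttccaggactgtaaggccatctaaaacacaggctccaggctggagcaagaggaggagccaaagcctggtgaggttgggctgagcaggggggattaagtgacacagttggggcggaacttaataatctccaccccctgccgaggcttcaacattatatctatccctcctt
Igf2r: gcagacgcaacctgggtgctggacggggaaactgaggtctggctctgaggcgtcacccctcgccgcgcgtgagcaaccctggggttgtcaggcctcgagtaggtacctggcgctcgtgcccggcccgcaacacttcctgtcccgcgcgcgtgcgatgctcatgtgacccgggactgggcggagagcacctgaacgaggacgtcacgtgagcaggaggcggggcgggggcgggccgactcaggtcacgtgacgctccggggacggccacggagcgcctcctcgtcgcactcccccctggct
Kcnq1ot1: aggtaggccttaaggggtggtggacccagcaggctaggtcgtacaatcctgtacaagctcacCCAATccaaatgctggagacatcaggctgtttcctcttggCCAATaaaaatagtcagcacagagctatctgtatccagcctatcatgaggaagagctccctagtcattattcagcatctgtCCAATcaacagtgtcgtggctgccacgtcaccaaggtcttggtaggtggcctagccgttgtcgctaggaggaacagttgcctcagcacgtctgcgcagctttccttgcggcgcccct
Snrpn: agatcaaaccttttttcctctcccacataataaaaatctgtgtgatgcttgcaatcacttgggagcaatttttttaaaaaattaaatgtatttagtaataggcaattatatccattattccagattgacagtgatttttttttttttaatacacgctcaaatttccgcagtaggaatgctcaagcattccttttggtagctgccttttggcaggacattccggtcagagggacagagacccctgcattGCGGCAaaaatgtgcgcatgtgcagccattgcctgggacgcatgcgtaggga
Mest: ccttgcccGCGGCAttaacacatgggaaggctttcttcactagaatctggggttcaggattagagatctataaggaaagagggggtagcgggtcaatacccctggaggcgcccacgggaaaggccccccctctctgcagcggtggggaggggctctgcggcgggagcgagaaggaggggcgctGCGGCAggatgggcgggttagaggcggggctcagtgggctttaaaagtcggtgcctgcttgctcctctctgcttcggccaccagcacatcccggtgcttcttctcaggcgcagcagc
Meg3: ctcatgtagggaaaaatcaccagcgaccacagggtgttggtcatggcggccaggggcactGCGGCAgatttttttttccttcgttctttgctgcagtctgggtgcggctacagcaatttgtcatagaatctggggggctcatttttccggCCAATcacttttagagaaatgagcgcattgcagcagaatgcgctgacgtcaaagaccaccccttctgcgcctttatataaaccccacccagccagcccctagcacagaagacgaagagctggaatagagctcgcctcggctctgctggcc

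TGCCGC was present in the windows of Snrpn (1 match), Mest (2 matches) and Meg3 (1 match), 3 of the 9 windows, against 11.6% of all 32817 RefSeq promoter windows. CCAAT was present in Kcnq1ot1 (3 matches), Peg3 (2 matches) and Meg3 (1 match), again 3 of 9, against 37.4% of all windows. AAGATGG was found in 0 of the 9 windows and in 6.34% of all. The windows differed widely in CpG content, and those of Igf2 and Snrpn do not hold the called start. Igf2r held 34 CpG dinucleotides, Igf2 24, Mest 17, Peg3 and Meg3 13 each, Kcnq1ot1 9, Snrpn 7, Airn 3 and Rian 0, and the median of all windows was 7. The 300 bases at the Airn start are thus poor in CpG, and the CpG-rich sequence of that domain lies just downstream, where a separate peak was called.

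**Figure D1:**
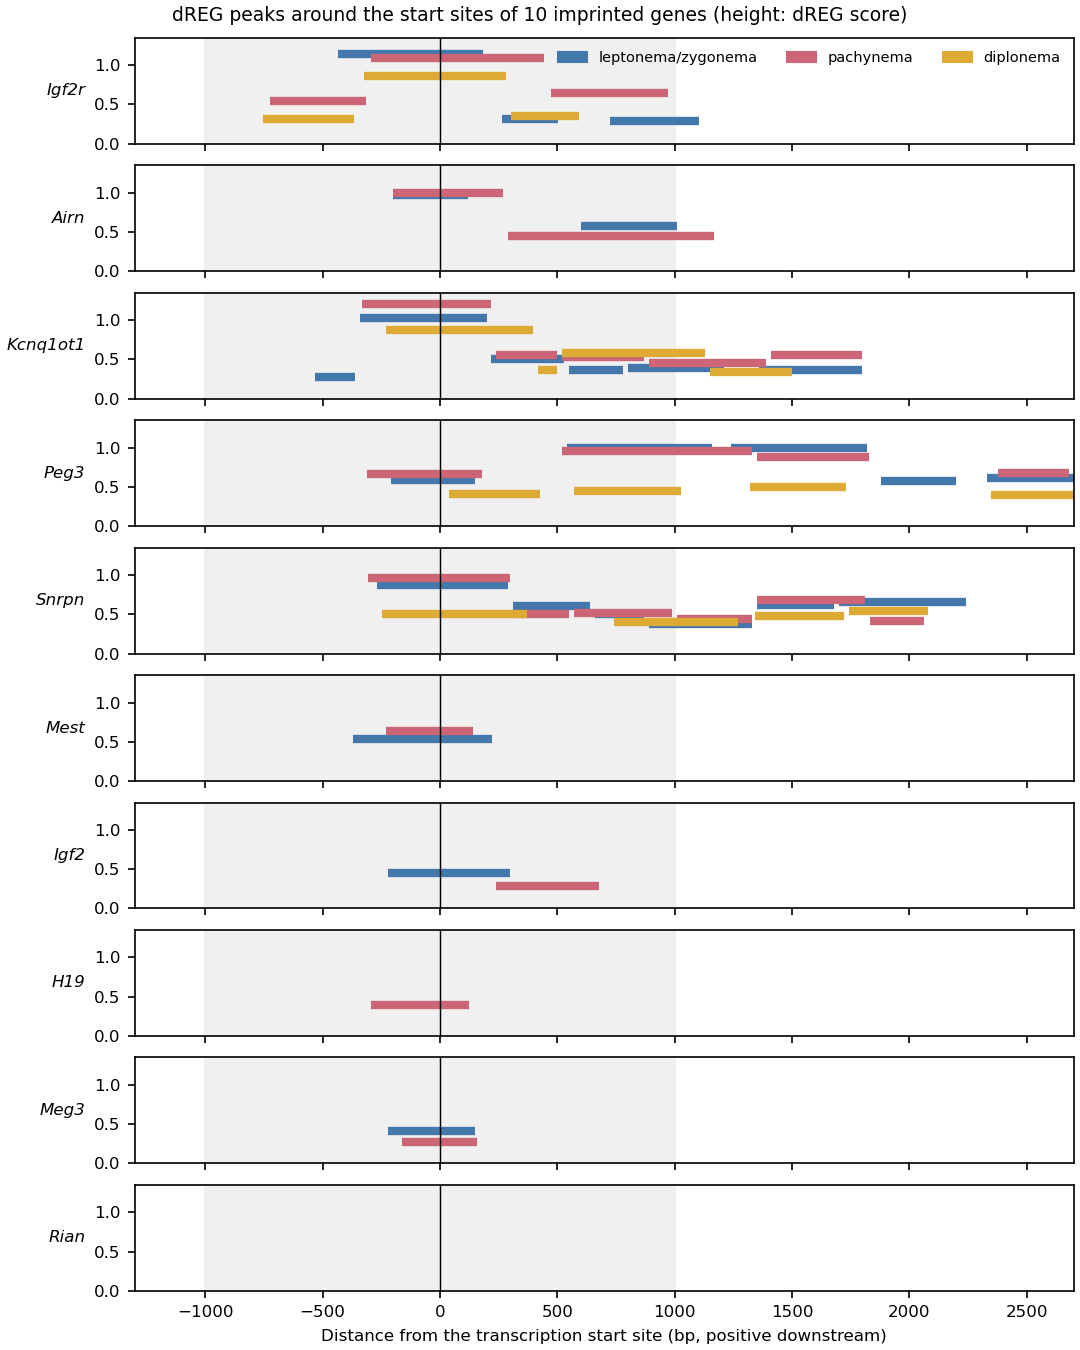
Each bar is a dREG peak, drawn by its distance from the start site of the gene (x axis, bp, positive in the direction of transcription) and its dREG score (y axis), in LZ, P and D. The grey band is the 1000 bp to each side. Igf2r, Kcnq1ot1, Peg3 and Snrpn have peaks of all 3 substages within it, Airn, Mest, Igf2 and Meg3 of LZ and P, H19 of P, and Rian of none.

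Among the promoters of paternally expressed noncoding RNAs, Kcnq1ot1 was called in every substage. Kcnq1ot1 is a long antisense RNA of 93.1 kb that starts within Kcnq1 and silences its neighbours in cis on the paternal copy. Its highest promoter peak covered the start itself, with a score of 1.033 in LZ, 1.202 in P and 0.878 in D. These ranked above 51.4%, 79.7% and 57.6% of the genes with a promoter peak in LZ, P and D, and among the 14699 genes called in all 3 lists above 40.2%, 73.7% and 55.3%, so P was its highest place in either ranking. The peak over the start was chr7:143296351-143296890 in LZ, chr7:143296331-143296880 in P and chr7:143296151-143296780 in D, and the P peak shared 530 bp with the LZ peak and 450 bp with the D peak. The 3 CCAAT matches of the sequence above lie inside it in each list. Kcnq1ot1 had 5 promoter peaks in LZ, 4 in P and 3 in D, and lower-scoring peaks continued into the transcribed region. In LZ a peak of score 0.386 lay 799 bp from the start and in P a peak of 0.459 lay at 889 bp, both just inside the limit of 1000 bp. In D a peak of score 0.333 lay at 1149 bp, just outside it. Kcnq1, the potassium channel gene in which Kcnq1ot1 starts, had no promoter peak in any list.

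Airn was called in LZ and P and not in D. Airn is the antisense RNA that starts inside an intron of Igf2r, runs against it past the Igf2r promoter, and is annotated over 119 kb. Its promoter peak covered the start with a score of 0.968 in LZ (chr17:12741111-12741430) and 0.99 in P (chr17:12741111-12741580), which ranked above 44.4% and 50.3% of genes. These are mid-range values of each list. In D no peak lay within 27.7 kb of any Airn start, and the nearest was a peak of score 0.354 at the Igf2r promoter. Over all genes with a promoter peak in P, 80.3% also had one in D, and among protein-coding genes 84.1%. This share depended on the P score: of the genes whose P score was, like that of Airn, from 0.986 to 1.075, 96.1% were also called in D. The P score of Airn lies near the lower edge of that range. Of the genes with P scores from 0.88 to 0.986, 91.0% were also called in D. Airn is therefore among the minority of genes near its P score without a D peak, as a description of these lists.

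A further Airn peak lay downstream of the start in both lists. It scored 0.576 in LZ at chr17:12741911-12742320 and 0.444 in P at chr17:12741601-12742480. The P peak spans 880 bp and held 68 CpG dinucleotides and 6 matches of TGCCGC, whereas the start peak of P held 16 and 1. The 300 bases of it with the most TGCCGC matches, chr17:12741725-12742024 on the plus strand, are shown because they carry 3 matches (capitals) next to a promoter window that has none.
Airn downstream: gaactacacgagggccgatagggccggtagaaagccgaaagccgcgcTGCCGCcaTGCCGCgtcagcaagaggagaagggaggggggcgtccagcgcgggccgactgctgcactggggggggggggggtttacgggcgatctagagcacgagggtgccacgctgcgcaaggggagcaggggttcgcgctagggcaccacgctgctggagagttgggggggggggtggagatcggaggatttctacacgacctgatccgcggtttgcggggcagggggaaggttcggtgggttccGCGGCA

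Igf2r, which encodes the receptor that sorts enzymes to lysosomes and clears the growth factor made by Igf2, had the highest promoter scores of the protein-coding members. The highest peak covered the annotated start in each list, with scores of 1.14 in LZ (chr17:12769481-12770100), 1.093 in P (chr17:12769221-12769960) and 0.862 in D (chr17:12769381-12769990). Its ranks were above 66.0%, 62.4% and 55.8% of genes, and among the 14699 genes called in all 3 lists above 57.5%, 51.8% and 53.4%. The position was thus stable: the P peak shared 480 bp with LZ and 580 bp with D. Weaker peaks lay beside it in every list, giving 3 promoter peaks in each. In D these scored 0.354 and 0.312, in P 0.649 and 0.544, and in LZ 0.315 and 0.283. Among the 30 imprinted genes with a promoter peak in all lists, the gene with the most similar ranks was Nap1l4, whose rank differed from that of Igf2r by at most 1.57 percentage points in any substage.

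**Figure D2:**
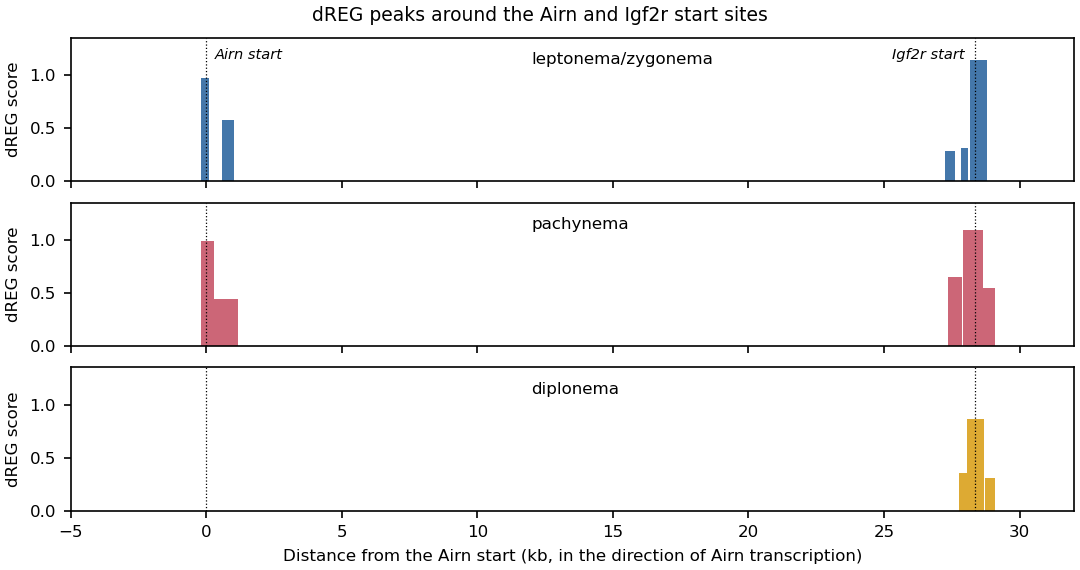
dREG score (y axis) of every peak against its distance from the Airn start (x axis, kb, in the direction of Airn transcription) in LZ, P and D; bars are drawn at peak width. Peaks at the Igf2r start appear in all 3 lists, with scores up to 1.14, 1.093 and 0.862, while the pair of peaks at the Airn start appears in LZ and P and is absent from the D list.

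Because the genes overlap, the gene-body peaks of Igf2r are the Airn promoter peaks, 2 in LZ, 2 in P and 0 in D, and the gene-body peaks of Airn are the Igf2r promoter peaks, 3 in each list. Counting them as body peaks of their host says nothing about either gene beyond what is given above. Slc22a2 and Slc22a3, neighbours that Airn silences in placenta, had no promoter peak in any list.

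Peg3 encodes a zinc finger protein and shares its promoter region with Usp29, which runs in the opposite direction. The highest promoter peak of Peg3 did not cover the start. It lay 539 bp downstream in LZ (chr7:6729261-6729880, score 0.994), 519 bp in P (chr7:6729091-6729900, score 0.958) and 569 bp in D (chr7:6729391-6729850, score 0.449). A lower peak sat on or beside the start, with scores of 0.592 in LZ, 0.667 in P and 0.413 in D, where it ended 39 bp from the start. Peg3 ranked above 47.1% of genes in LZ, 47.1% in P and 15.4% in D, and the same peaks were assigned to Usp29. These ranks are within lists of unequal length, and low-scoring genes were lost most often from D, which lowers the rank of those that remain. Among the 14699 genes called in all 3 lists, a comparison added after seeing the data, Peg3 ranked above 35.3% in LZ, 32.9% in P and 13% in D. The D call of Peg3 was lost with a score of at least 0.5 or with the start required inside the peak.

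The peaks of Peg3 continued through the first intron, outside the limit of 1000 bp. In LZ a peak at chr7:6728601-6729180 had a score of 0.998, the highest of any Peg3 peak in that list, 1239 bp from the start, followed by peaks of 0.575 and 0.608. In P the intronic peaks scored 0.878 and 0.673, and in D 0.504 and 0.393. The farthest of them was called in all 3 lists at nearly the same place, chr7:6727711-6728090 in LZ, chr7:6727741-6728040 in P and chr7:6727721-6728070 in D. It held 3 matches of the YY1 core in each list, and the highest promoter peak of Peg3 held 2 in each list. Matches also lay in the other intronic peaks of Peg3 and in promoter peaks of Kcnq1ot1 and H19. The farthest intronic peak is printed because no member's promoter window held any match. The letters are those of the P peak, 300 bases on the minus strand, with the matches in capitals as CCATCTT, the reverse complement of AAGATGG.
Peg3 intron: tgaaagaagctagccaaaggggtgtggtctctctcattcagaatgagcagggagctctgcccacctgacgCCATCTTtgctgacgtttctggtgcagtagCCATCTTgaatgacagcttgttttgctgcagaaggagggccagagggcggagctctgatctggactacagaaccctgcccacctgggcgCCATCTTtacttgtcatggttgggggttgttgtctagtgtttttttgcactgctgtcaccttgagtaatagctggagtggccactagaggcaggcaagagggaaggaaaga

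The peak with the highest score of any Peg3 peak in P and D lay elsewhere, over the 5′ edge of the last exon, 11.2 kb to 11.3 kb from the nearest annotated start. It was called at chr7:6711181-6712010 in LZ with a score of 0.58, at chr7:6711151-6712020 in P with 1.015 and at chr7:6711231-6711930 in D with 0.759. Of all peaks in the list, 49.3% scored lower in LZ, 83.7% in P and 72.8% in D. The D promoter score of Peg3 was 0.449, below this exonic peak. With 15.1 gene-body peaks per 100 kb of gene in LZ, and 11.3 in both P and D, Peg3 had the densest body peaks of the 10 genes.

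Snrpn encodes a spliceosomal protein, and its main start, shared with the upstream reading frame Snurf, is the imprinting centre promoter of its domain. The highest promoter peak covered this start in every list, with a score of 0.867 in LZ (chr7:60004821-60005380), 0.965 in P (chr7:60004811-60005420) and 0.508 in D (chr7:60004741-60005360). The ranks were above 35.6%, 47.8% and 20.8% of genes, and among the 14699 genes called in all 3 lists they were above 23.2%, 33.6% and 18.0%. Of the further promoter peaks, 3 in LZ, 2 in P and 1 in D, all lay downstream. The annotation also places a start 135 kb upstream, and no list had a peak within 58.7 kb of it.

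Peaks lay inside the upstream introns of Snrpn as well, between its main start and that distant start. At 31.5 kb from the main start, a peak at chr7:60036601-60037430 in P scored 0.931 and its counterpart at chr7:60036731-60037190 in D scored 0.889. The D value was higher than the Snrpn promoter in the same list, 0.508, and exceeded 82.3% of all D peaks. In LZ the same stretch held only low peaks, 0.342 at chr7:60036711-60037040 and 0.305 at chr7:60037091-60037380, with a peak of 0.503 nearby at chr7:60036001-60036340. A further intronic peak, 45.2 kb from the start in P and 45.4 kb in LZ, was called in LZ (0.406) and P (0.506) but not in D. The P sequence of the 31.5 kb peak was 54.2% soft-masked as repeats in the genome, had 38.4% GC and held 4 CpG dinucleotides, while the peak at the main start was 25.2% soft-masked and held 22.

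Mest encodes a hydrolase-like protein and was called in LZ and P. The single promoter peak covered a start 14.5 kb downstream of the most 5′ annotated start, with scores of 0.535 in LZ (chr6:30737681-30738270) and 0.636 in P (chr6:30737821-30738190). These ranked above 14.3% and 22.3% of genes, so Mest was in the lower part of both lists. Of the genes with a P score from 0.6 to 0.747, which includes Mest, 67.0% were also called in D, where the nearest peak to any Mest start was 29.1 kb away. The LZ peak held 6 matches of TGCCGC and the P peak 4. No other peak lay within the gene.

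The genes of the paternally methylated domains had the lowest scores of the 10. H19, a noncoding RNA of 2.62 kb and the host of Mir675, had a peak in P only (chr7:142577971-142578390, score 0.396), and the nearest peaks in LZ and D were 42.6 kb and 43.2 kb away. Igf2, the fetal growth factor gene, had a score of 0.452 in LZ (chr7:142659191-142659710) and 0.28 in P (chr7:142658811-142659250), where the peak missed the start by 239 bp. Both peaks were also promoter peaks of another annotated gene, Igf2os, so they cannot be given to Igf2 alone. The same limit holds for the highest promoter peaks of most other members, in every list that called them. Kcnq1ot1 shared its peak with Gm37364, Igf2r with Gm23833 and Meg3 with Gm27596. H19 shared its peak with Gm27786 and Mir675, Peg3 with Gm27675 and Usp29, and Snrpn with Gm38393 and Snurf. The peaks of Airn and Mest were shared with no other annotated gene. The LZ and P peaks of Igf2 overlapped by 60 bp, against 310 bp or more for every other pair of best peaks of 1 member. From 10 kb beyond the H19 start to 100 kb upstream of it, a span that holds Igf2, the lists had 1 peak in LZ, 2 in P and 0 in D. Ins2, the next gene of the domain, had no promoter peak in any list.

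Meg3, the noncoding RNA of the Dlk1/Meg3 domain, had a score of 0.414 in LZ (chr12:109540781-109541150) and 0.275 in P (chr12:109540841-109541160), with both peaks over the start, and none in D. The P scores of H19, Igf2 and Meg3 ranked above 7.46%, 0.409% and 0.309% of genes, so Igf2 and Meg3 were near the bottom of the P list. With a score of at least 0.5, H19, Igf2 and Meg3 had no call in any list. All 3 were among the 1907 genes with P scores up to 0.437, of which 24.3% were also called in D. Rian, a host of small nucleolar RNAs with 19 annotated starts, had no promoter peak and no gene-body peak in any list. The peak nearest to a Rian start was 19.4 kb away in LZ, 62.8 kb in P and 75.1 kb in D. Dlk1 and Rtl1, protein-coding genes of the domain that are expressed from the paternal copy, had no promoter peak in any list.

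Mirg, the microRNA host at the far end of the same domain, stood apart from its neighbours. It had no promoter peak in LZ, a score of 1.143 in P (chr12:109738501-109739100) and of 1.171 in D (chr12:109738471-109739170), which ranked above 69.9% and 92.2% of genes. These peaks were 721 bp and 691 bp from the nearest annotated Mirg start and did not cover it. A lower P peak of 0.387 did. With a limit of 500 bp, or with the start required inside the peak, the P score of Mirg was therefore 0.387 and its D call was lost. In P and D every peak of the domain beyond the Meg3 start lay between 196.7 kb and 199.8 kb from it.

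**Figure D3:**
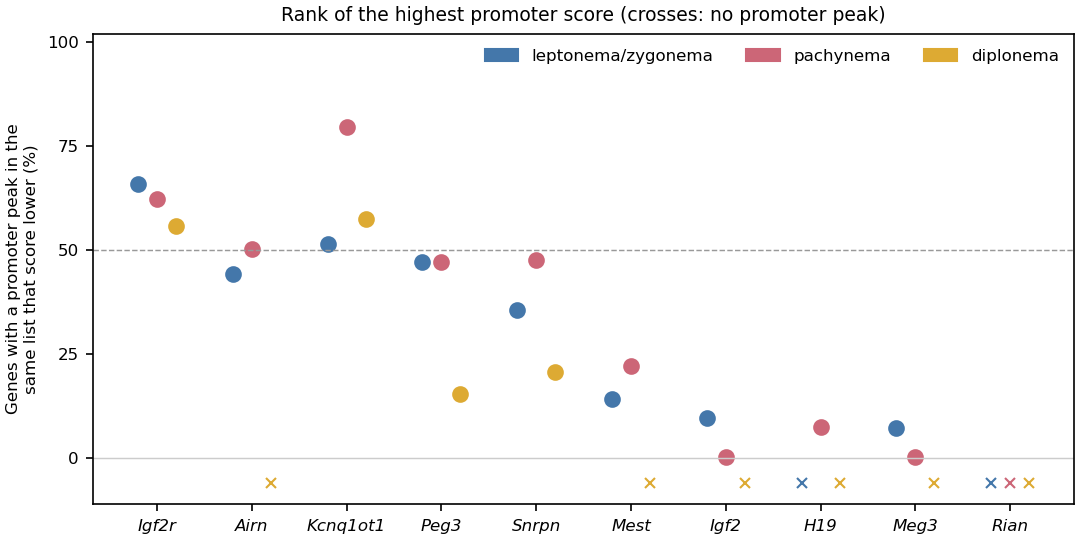
For each gene and substage, the share of genes with a promoter peak in the same list whose highest promoter score was lower (y axis, %); crosses below 0 mark genes without a promoter peak, and the dashed line is the middle of the list. Kcnq1ot1 in P is highest at 79.7%, Igf2r is at 55.8% or more in all 3 lists, and Igf2 and Meg3 in P are at 0.409% and 0.309%.

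Taking the members by kind, the 5 whose promoter is a maternally methylated region were all called in LZ and P, with scores from 0.535 to 1.202, and 3 of the 5 were called in D. Igf2r was called throughout. Of the 4 members in paternally methylated domains, 2 were called in LZ, 3 in P and 0 in D, with scores from 0.275 to 0.452. Beside these counts, LZ, P and D called 34.0%, 34.4% and 28.1% of all genes and 60.1%, 60.5% and 51.6% of protein-coding genes. Among the members, the LZ and P scores of the paternally methylated group reached 0.452 and those of the maternally methylated group began at 0.535. Other genes listed here under paternally methylated domains had higher scores. Rasgrf1 had 0.745 in P and Mirg 1.143 in P (0.387 for the peak over its start). Zdbf2, whose listing these data cannot check, had 1.216 in LZ and 1.335 in P. The split therefore holds for the members named here and has no test.

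The motif letters were also counted in the middle 300 bp of every promoter peak. TGCCGC was present in 8 of the 19 member peaks in LZ (42.1%), 9 of 18 in P (50.0%) and 5 of 10 in D (50.0%), while over all promoter peaks of the same lists it was present in 14.6%, 14.3% and 16.5%. AAGATGG was present in 2 member peaks in each list, against 6.17%, 6.22% and 6.75% of all promoter peaks. CCAAT was present in 9, 7 and 4 member peaks, against 31.9%, 31.9% and 32.3%. Neighbouring peaks of 1 gene and overlapping peaks of different lists share sequence, so these are few independent places, and the letters alone show no binding.

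Gene-body peaks followed the same few genes. Of the 9 members of at least 10 kb, 5 had a body peak in LZ, 5 in P and 4 in D, and of all genes of that length 38.9%, 36.8% and 22.0% did. Their number was 19 in LZ, 17 in P and 11 in D, all of them in Igf2r, Airn, Kcnq1ot1, Peg3 and Snrpn. With lists of equal length it was 9 in LZ, 10 in P and 11 in D, so the order of the substages depended on the length of the lists. Without the peaks that Igf2r and Airn owe to each other's promoter, 3 of the 9 members (33.3%) had a body peak in each list, with 14, 12 and 8 peaks. The shares over all genes of that length keep body peaks at the promoters of other genes, so they are not measured like this 33.3%. In Kcnq1ot1, peaks from 70.7 kb to 71.6 kb into the RNA scored 0.375 and 0.537 in LZ and 0.315 in P. The LZ pair was 100% and 98.7% soft-masked as repeats.

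Of the other imprinted genes, 54 were looked up. In LZ 31 of them (57.4%) had a promoter peak, in P 33 (61.1%) and in D 28 (51.9%), near the shares of protein-coding genes given above. With lists of equal length these counts were 27, 29 and 28. A peak in all 3 lists was found for 26 and in none for 19, and no list called 62.8% of all genes and 35.9% of protein-coding genes. Of the 18 genes listed as paternally expressed, of which all but the antisense gene Zim3 are annotated as protein-coding, 14, 15 and 12 were called in LZ, P and D, and of the 23 listed as maternally expressed, 13, 12 and 12. Parental expression here is the textbook assignment, which for Gnas and Grb10 depends on tissue or promoter. The genes with no promoter peak in any list were 9 of the maternally expressed and 3 of the paternally expressed (Slc38a4, Ndn and Magel2). They also included 3 of the 6 listed under paternally methylated domains (Dlk1, Rtl1 and Ins2) and 4 of the 7 noncoding RNAs. Among those of the 54 with a promoter peak in the list, the median highest score was 0.892 in LZ, 0.958 in P and 0.697 in D. Over all genes with a promoter peak it was 1.02, 0.986 and 0.811.

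Of the highest promoter scores among them, P and D shared the top pair, Zdbf2 and Nespas, and LZ had other genes. In LZ they were Ube3a, a ubiquitin ligase, at 1.378, Inpp5f at 1.261 and Blcap at 1.253. The Inpp5f score is that of the peak over the 5′ end of the gene. Near a further start inside Inpp5f the peak scored only 0.35 in LZ and 0.611 in P, and none was called there in D. In P they were Zdbf2 at 1.335, Nespas at 1.297 and H13 at 1.296, and in D Zdbf2 at 1.32, Nespas at 1.248 and Mirg at 1.171, a place that Mirg loses with the 500 bp limit or with its start required inside the peak. Zdbf2 was listed here under the paternally methylated domains, an assignment that these data cannot check. It ranked above 78.8% of genes in LZ, 96.9% in P and 99.5% in D. Nespas, an antisense noncoding RNA of the Gnas domain, ranked above 74.3%, 93.5% and 97.6%. The low scores of H19, Igf2 and Meg3 were thus not shared by every gene listed under a paternally methylated domain.

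**Figure D4:**
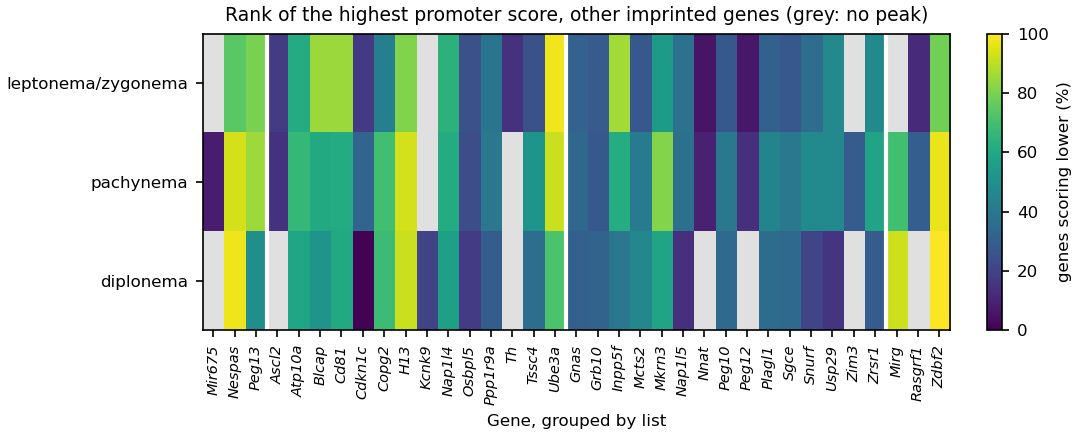
Rank of the highest promoter score (colour, % of genes with a promoter peak in the list that scored lower) for the 35 other imprinted genes with a promoter peak in at least 1 list, by substage. Grey marks no peak. White lines part the 3 noncoding RNAs, 14 maternally expressed genes, 15 paternally expressed genes and 3 genes listed under paternally methylated domains. Zdbf2 and Nespas are high in P and D, and Nnat, Peg12 and Ascl2 are low in LZ and P and absent from D.

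Of the 54 genes, 9 were called in some lists only, including Mirg in P and D, a pattern of 1.1% of all genes and 1.44% of protein-coding genes. Nnat (0.383 and 0.421), Peg12 (0.399 and 0.497), Ascl2 (0.588 and 0.516) and Rasgrf1 (0.503 and 0.745) were called in LZ and P and not in D, the pattern of Airn, Mest, Igf2 and Meg3. This pattern was found in 5.1% of all genes and 7.5% of protein-coding genes. All 3 lists called 26.5% of all genes and 49.4% of protein-coding genes, and P only called 1.69% and 2.09%. Zim3, annotated as antisense, was called in P only with 0.733, and Mir675 in P only through the H19 peak. Th was called in LZ only with 0.533 and Kcnk9 in D only with 0.505. No gene of the 54 was called in LZ and D but not in P, a pattern of 0.173% of all genes and 0.305% of protein-coding genes. LZ alone called 2.26% of all and 2.91% of protein-coding genes, and D alone 0.348% and 0.433%. The closest match in rank to Kcnq1ot1 was Mkrn3, within 2.99 percentage points in every substage, and for Peg3 and Snrpn it was Usp29 and Snurf, which share their peaks.

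Of 8 factors that protect or read imprints, 7 were called in LZ and P and 6 in D, where 60.1%, 60.5% and 51.6% of protein-coding genes were called in LZ, P and D. Zfp57 scored 1.255, 1.101 and 0.92 in LZ, P and D, and Ctcf, the insulator protein of the H19/Igf2 domain, 1.156, 1.205 and 0.876. Ctcfl, the testis paralog of Ctcf, was called in LZ (0.94) and P (0.674) and not in D. Dppa3 had no promoter peak in any list, and Zfp445, Trim28, Setdb1 and Uhrf1 had one in each.

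Several members are active in somatic cells, so markers of other testis cells were looked up after the members' values were known. All 6 spermatocyte genes looked up (Sycp1, Sycp2, Sycp3, Dmc1, Hormad1 and Spo11) had a promoter peak in every list, with scores up to 1.293 in LZ, 1.324 in P and 1.328 in D. Of 12 markers of Sertoli, Leydig and peritubular cells, 1 had a promoter peak in LZ, 3 in P and 3 in D. These were Sox9 (0.385, 0.652 and 0.564 in LZ, P and D), Wt1 (0.408 in P and 0.311 in D) and Lhcgr (0.293 in P and 0.294 in D). Amh, Dhh, Fshr, Insl3, Star, Cyp17a1, Hsd3b1, Acta2 and Myh11 had none. In P, H19 (0.396) lay between Lhcgr and Wt1, and Igf2 (0.28) and Meg3 (0.275) lay below all 3 of these calls. In LZ, Igf2 (0.452) and Meg3 (0.414) lay above the only somatic call, Sox9. The methods of the study name germ cells of earlier or later development as potential contaminants of the fractions. Its results give elongated spermatids as most of the contamination. Markers of spermatids and of earlier germ cells were therefore looked up as well. Of 5 spermatid genes, 4 had a promoter peak in every list. Acrv1, which encodes a protein of the acrosome, scored 1.316 in LZ, 1.297 in P and 0.972 in D, and Tnp1, a transition protein gene, 0.981, 0.956 and 1.023. The protamine genes Prm1 and Prm2 had the same scores, 0.676 in LZ, 0.561 in P and 0.747 in D, and Tnp2 had no peak. Of 5 genes of spermatogonia and the entry into meiosis, 4 were called in LZ, 4 in P and 3 in D. Kit scored 1.037 in LZ, 0.999 in P and 0.343 in D, Uchl1 scored 1.02, 1.077 and 0.772, and Zbtb16 0.845, 0.857 and 0.685. Stra8 was called in LZ (0.755) and P (0.58) and not in D, the pattern of Airn, and Gfra1 had no peak. In LZ and P the called genes of both groups scored above H19, Igf2 and Meg3. The part of other cells in these calls was not tested.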

How the data were processed

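leChRO-seq libraries of wild-type mouse spermatocytes, 4 per substage, were trimmed, aligned to mm10 and merged by substage by the authors, who called peaks with dREG at default settings; the submitters' processing notes name cutadapt, BWA and bedtools, and the dREG version is not given in the sources used here. The deposited lists give for each peak its position, a dREG score, a p-value and a centre position, and hold no read counts; the study's methods give library normalization factors, which were not used here, and differences in depth between substages may move which peaks pass the caller. dREG reads both strands, and its calls do not measure transcript levels. The deposited p-values were used only in an alternative limit, and some are listed as 0 at low scores.

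TSSs were taken from GENCODE M21 (132666 positions of 141767 transcripts), and all 72 listed symbols matched. A promoter peak has its edge under 1000 bp from any TSS of a gene. Lookups were tested on simulated intervals (7628 comparisons, 0 wrong). Analyses used Python 3.11.15, pandas 2.3.3, numpy 2.4.6 and matplotlib 3.10.9. Windows, CpG, GC and motifs came from RefSeq GRCm38.p6, the same assembly as mm10, with motifs searched on both strands.

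The members, gene lists and motifs were chosen with earlier results of these data known. Named are the 10 members, the 3 highest-scoring other imprinted genes per list, those called in some lists only, those sharing a peak with a member, and the closest gene in rank to each member called throughout. Kcnq1, Slc22a2, Slc22a3, Dlk1, Rtl1, Ins2, Slc38a4, Ndn, Magel2, the individual imprint factors and the cell type markers were named after their values were seen. Alternatives were a score of at least 0.5, a p-value of at most 0.01, lists of equal length, a 500 bp limit, TSS inside the peak, distance from the peak centre, the most 5′ TSS only, RefSeq TSSs, and a window of 250 bp to each side for motifs.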

Additional observations from a re-analysis of the deposited data

How the results depend on the processing

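Of 63 counts recomputed under other settings, 55 were within 1.5 times the reported count, though members were lost within that margin. The 55 include the D counts with lists of equal length, which could not move because the D list sets that length. With lists of equal length, LZ held 5 members with a promoter peak (Igf2, Meg3 and Mest were lost, and in P H19, Igf2 and Meg3), and the gene-body peaks numbered 9 in LZ, 10 in P and 11 in D, which turns their order. With the most 5′ start of each gene only, LZ again held 5 members (Igf2, Snrpn and Mest were lost, as in P, and Snrpn in D), as the called starts of these genes lie downstream. A score of at least 0.5 lost every call of H19, Igf2 and Meg3 and the D call of Peg3, and left 11 gene-body peaks in LZ, 11 in P and 5 in D. A p-value of at most 0.01 lost Meg3 in LZ and P and Igf2 in P. Leaving out body peaks at another member's promoter, a setting chosen after seeing the data, gave 14, 12 and 8. Ranking members among the genes called in all 3 lists, likewise chosen after seeing the data, lowered all their ranks, and the D rank of Igf2r was no longer its lowest. A window of 250 bp to each side of the start raised the members with TGCCGC from 3 to 5 of 9, against 19.9% of all windows of that length. Of 144 highest promoter scores recomputed where the call was kept, 139 were unchanged, but many of these could not change. A score floor and a shortened list drop only low-scoring peaks, so a kept gene keeps its highest score. The D list is not shortened at all. The other 5 scores were those of Peg3. With a 500 bp limit they were 0.592 in LZ, 0.667 in P and 0.413 in D. With the start inside the peak they were 0.592 in LZ and 0.667 in P, and that setting lost the D call of Peg3 and the P call of Igf2. The LZ and P calls of Airn were kept under each of the 8 settings for promoter peaks.

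No paired analysis was possible because the deposited lists pool the libraries of a substage; leaving out single libraries was likewise not possible. The files hold no read counts, and the library depths of the study were not used here, so for a peak missing from D, the list with the fewest peaks (38603), a lack of depth and a lack of initiation cannot be told apart, and a missing peak is not an absence of transcription. Equal-length lists, above, address only the number of peaks.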
